A study of Homo sapiens with 18 samples.

Results

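Complex I, or NADH:ubiquinone oxidoreductase, is the entry point of the mitochondrial respiratory chain. The nuclear genes of its subunits were described here across 6 groups of colorectal cancer cell libraries. Members were the protein-coding genes whose symbol is NDUFA, NDUFB, NDUFC, NDUFS or NDUFV followed by a number, together with NDUFAB1. NDUFA4L2, pseudogenes, antisense genes and the NDUFAF assembly factors were excluded. The members described here were 38 genes of the 61806 in the table, and all 38 were among the 18537 genes tested. They comprised 37 single subunits and NDUFC2-KCTD14, a readthrough gene that shares exons with NDUFC2. The rule reads symbols and gene types and uses no measured value.

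Complex I oxidises NADH, passes the electrons along a flavin and a chain of iron-sulfur clusters to ubiquinone, and pumps protons across the inner mitochondrial membrane. Its peripheral arm holds the N module, which binds NADH, and the Q module, which reduces ubiquinone. The membrane arm is built in the ND1, ND2, ND4 and ND5 modules around ND proteins encoded by the mitochondrial genome, so both genomes must supply parts. The core subunits carry the catalysis and have bacterial counterparts, whereas the accessory subunits surround and stabilise them. The 38 members held 6 nuclear core subunits, NDUFS1, NDUFS3, NDUFS7, NDUFS8, NDUFV1 and NDUFV2, and 32 others. NDUFA4 is kept under its symbol, although structural work assigns it to complex IV.

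The libraries were poly(A)-enriched RNA-seq of LoVo and DLD-1, established human colorectal adenocarcinoma lines. LIN28B binds RNA and keeps let-7 precursors from maturing, and in mice its relative Lin28a was reported to bind Ndufb3 and Ndufb8 mRNAs and raise their translation. Each line had LIN28B-overexpressing cells given 5 µM alpelisib, which inhibits phosphatidylinositol 3-kinase alpha, LIN28B-overexpressing cells without the drug, and empty vector (EV) cells without the drug, with 3 libraries each. Alpelisib was given to LIN28B cells only, so no group shows the drug in EV cells. The promoter that drives LIN28B, whether a line is a clone or a pool, the treatment time and the vehicle are not given in the sources used here. The labels do not say that replicates were separate cultures, and p-values then measure the spread between these libraries alone, which may be technical.

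LIN28B was read first to check the labels. In the LoVo-labelled libraries it measured 146, 160.3 and 155 TPM with LIN28B and alpelisib, 706, 682 and 674 TPM with LIN28B alone and 4.91, 3.66 and 3.87 TPM in EV. In DLD-1 it measured 149.7, 139 and 141 TPM with LIN28B and alpelisib, 493, 483 and 408 TPM with LIN28B alone and 2.74, 1.17 and 1.38 TPM in EV. All LIN28B libraries were far above all EV libraries of their line. LIN28B mRNA itself was lower with the drug than without it in both lines (log2 change -2.15, SE 0.15, adjusted p = 6.6e-08 under the LoVo label and log2 change -1.68, SE 0.15, adjusted p = 1.9e-06 in DLD-1). An alpelisib comparison is therefore also one between lower and higher LIN28B mRNA, and the part of that difference in the complex I values was not tested.

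Between 23010 and 25501 genes were above 0 TPM in a library, and sequencing depth cannot be read from TPM. Across genes, Pearson's r of log2(TPM + 1) lay between 0.964 and 0.968 for LoVo-labelled LIN28B against DLD-1 LIN28B libraries, and between 0.890 and 0.918 for LoVo-labelled LIN28B against LoVo EV libraries. For LoVo-labelled LIN28B with alpelisib, r was 0.953 to 0.963 against the same DLD-1 group and 0.899 to 0.914 against LoVo EV. The LIN28B libraries with a LoVo label thus resembled DLD-1 libraries more than the EV libraries with the same label. Every contrast of the LoVo label that uses EV may therefore hold a difference between lines. Agreement between the labels may likewise not be agreement between 2 cell lines. The labels were kept, and "both lines" below means both labels. Mitochondrial genome transcripts made up 24.0%, 23.1% and 14.5% of TPM in the 3 LoVo EV libraries, and 7.24% to 15.8% in the other groups. All 10 epithelium markers read, among them EPCAM and KRT8, reached 1 TPM in a library, with a summed level of 7031 to 15211 TPM per library. Fibroblast markers summed to 3.24 to 15.0 TPM with COL1A2 at 0 in all libraries, immune markers to 0.949 to 15.4 TPM and endothelium markers to 0.0287 to 1.53 TPM.

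The subunit mRNAs differed widely in level, although nearly all of the proteins occur once per complex. TPM is scaled to transcript length, so levels of different genes can be set side by side, but only roughly. The annotation release behind those lengths is not given in the sources used here. Reads shared between a member and a pseudogene could also be assigned to either. The part of these in the ranking was not tested. NDUFA13, also known as GRIM-19, was the most abundant member at 441 TPM (mean of the 6 group means), followed by NDUFB8 at 335 TPM and NDUFB4 at 314 TPM. NDUFA13 measured 446, 436 and 433 TPM in LoVo-labelled LIN28B with alpelisib, 400, 399.6 and 406 TPM in LoVo-labelled LIN28B and 486, 412 and 441 TPM in LoVo EV. In DLD-1 it had 531, 472 and 528 TPM in LIN28B with alpelisib, 411, 416 and 406 TPM in LIN28B and 450.2, 452 and 421 TPM in EV. Its libraries with alpelisib lay above those with LIN28B alone in both lines, without overlap. By limma it was called higher in DLD-1 and not under the LoVo label (adjusted p = 0.151). The share of all genes without overlap was not counted. The lowest single subunit was NDUFV3, an accessory subunit of the N module, at 13.9 TPM, and the next were NDUFA4 at 41.0 TPM and NDUFS1 at 48.1 TPM. NDUFC2-KCTD14 was near the detection floor, at 1.51 TPM overall. Its values were 1.67, 0 and 0 TPM in LoVo-labelled LIN28B with alpelisib, 0.875, 9.28 and 0.798 TPM in LoVo-labelled LIN28B, 0, 0.673 and 0 TPM in LoVo EV, 3.997, 0 and 1.52 TPM in DLD-1 LIN28B with alpelisib, 0.731, 0.676 and 5.33 TPM in DLD-1 LIN28B and 0, 0.793 and 0.757 TPM in DLD-1 EV. Replicates of a group differed widely, with values of 0 in 4 of the 6 groups, and the gene was called in no comparison.

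Members differed in how far they moved across the 6 groups, and a few moved more than 2-fold. The difference between the highest and lowest group mean was read on the log2(TPM + 1) scale. It was smallest for NDUFC2 at 0.14, NDUFB7 at 0.15, NDUFA12 at 0.23 and NDUFA4 at 0.23. It was 0.50 for NDUFB2, at rank 19 of the 38. It was 1.35 for NDUFS1, 1.11 for NDUFA9, 1.10 for NDUFAB1, 0.95 for NDUFS5 and 0.91 for NDUFA10. NDUFS1 is the largest core subunit and carries iron-sulfur clusters of the N module, and NDUFA9 is an accessory subunit of the Q module. NDUFAB1 is the mitochondrial acyl carrier protein, which also serves fatty acid and lipoic acid synthesis. NDUFS1, NDUFA9, NDUFAB1 and NDUFA10 had their highest group mean in LoVo-labelled LIN28B and their lowest in LoVo EV. NDUFS5 was highest in LoVo EV.

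**Figure D1:**
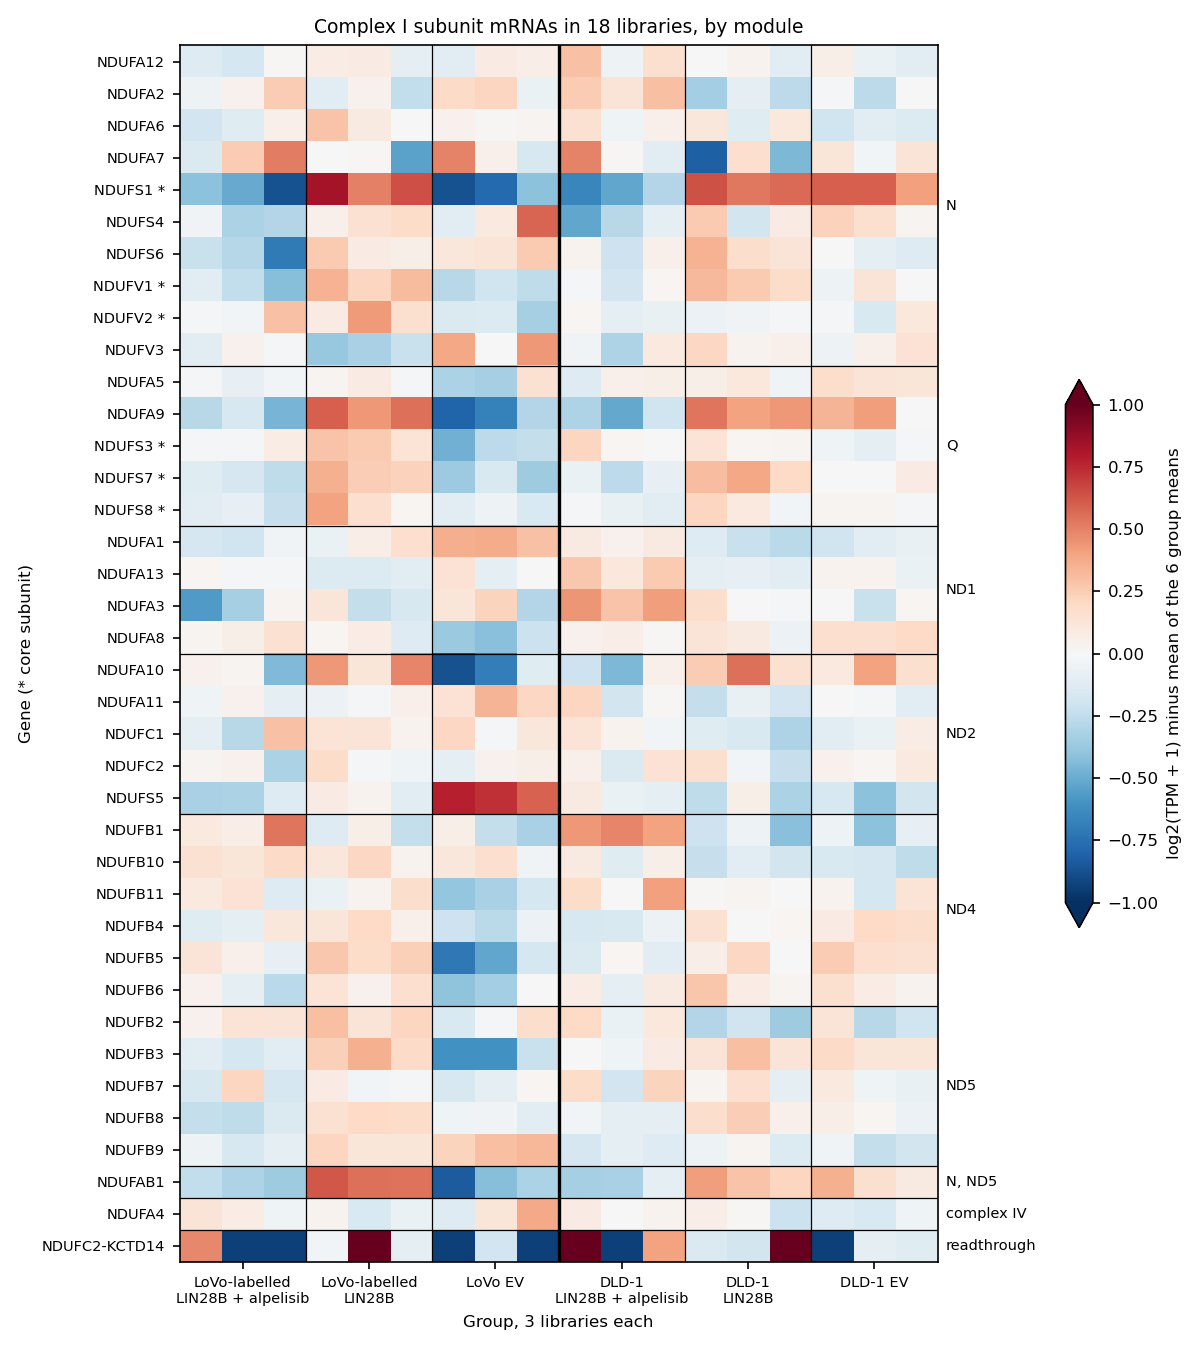
Each row is a member and each column a library, with groups of 3 libraries ordered LoVo-labelled LIN28B with alpelisib, LoVo-labelled LIN28B, LoVo EV, and the same for DLD-1. Colour gives log2(TPM + 1) minus the mean of the 6 group means, limited to 1 in either direction, and rows are grouped by module. NDUFS1, NDUFA9 and NDUFAB1 are low in both alpelisib groups and in LoVo EV, and NDUFS5 is high in LoVo EV, with a range of group means of 0.95.

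Promoter sequences are shown for 4 members called lower with alpelisib in both lines, which hold a YY1 motif. They are also shown for 2 called higher in DLD-1, which hold none. The 4 lower members shown are those with a match. NDUFAB1 and NDUFV1, also called lower in both lines, hold no match and are not shown. The sequences come from RefSeq (build GRCh38.p14), whose promoter table had entries for 34 of the 38 members. NDUFB5, NDUFB9, NDUFC2 and NDUFS5 had none. YY1 is a zinc finger factor that acts with PGC-1alpha downstream of mTOR on mitochondrial genes. Each line gives 150 bases 5′ to 3′ on the gene's own strand, 120 before and 30 from the annotated start, and capitals mark a match to AANATGGCG on either strand. The regions are chr2:206159415-206159564 (minus strand) for NDUFS1, chr12:4648994-4649143 (plus) for NDUFA9, chr19:1383787-1383936 (plus) for NDUFS7 and chr10:100529842-100529991 (minus) for NDUFB8, the 4 lower members. NDUFS1 and NDUFB8 have 2 annotated starts each, and the start with the match near it is shown. NDUFB1 (chr14:92121677-92121826, minus) and NDUFA2 (chr5:140647601-140647750, minus) are the 2 higher members.
NDUFS1: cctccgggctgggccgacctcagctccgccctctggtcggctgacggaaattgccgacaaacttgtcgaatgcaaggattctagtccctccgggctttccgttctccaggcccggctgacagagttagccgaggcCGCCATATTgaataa
NDUFA9: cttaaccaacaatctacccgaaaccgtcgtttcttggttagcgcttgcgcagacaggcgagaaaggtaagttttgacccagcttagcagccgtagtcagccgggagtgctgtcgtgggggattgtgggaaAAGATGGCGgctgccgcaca
NDUFS7: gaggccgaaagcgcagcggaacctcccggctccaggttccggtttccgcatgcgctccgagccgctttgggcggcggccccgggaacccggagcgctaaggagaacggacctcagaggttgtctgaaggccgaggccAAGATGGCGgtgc
NDUFB8: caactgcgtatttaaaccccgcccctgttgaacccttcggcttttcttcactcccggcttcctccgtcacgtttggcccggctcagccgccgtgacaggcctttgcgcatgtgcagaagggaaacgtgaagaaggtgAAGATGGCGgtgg
NDUFB1: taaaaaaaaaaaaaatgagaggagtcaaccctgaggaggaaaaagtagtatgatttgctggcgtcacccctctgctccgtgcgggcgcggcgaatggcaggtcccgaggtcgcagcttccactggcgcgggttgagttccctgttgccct
NDUFA2: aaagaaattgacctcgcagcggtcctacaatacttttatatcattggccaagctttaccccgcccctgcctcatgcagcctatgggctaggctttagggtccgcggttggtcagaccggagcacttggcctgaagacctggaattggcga

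In the whole promoter window, 250 bases before to 50 after the start and read on both strands, the YY1 motif occurred in 11 of 34 members (32.4%) and in 3.85% of all 27305 genes with an entry. The 11 were NDUFA6, NDUFA7, NDUFA9, NDUFB8, NDUFS1, NDUFS3, NDUFS4, NDUFS6, NDUFS7, NDUFS8 and NDUFV2. It was present in 4 of the 6 members with an entry that were called lower with alpelisib in both lines and in 0 of the 5 called higher in DLD-1. Of the other members that hold the motif, NDUFS3, NDUFS6 and NDUFS8 were called lower with alpelisib under the LoVo label only. NDUFA6, NDUFA7, NDUFS4 and NDUFV2 hold it too and were called in neither line. In the 4 printed promoters that hold it, the match lay between bases 11 and 26 after the start. The motif holds the letters ATG of a start codon. On the gene's own strand the printed matches of NDUFA9, NDUFS7 and NDUFB8 hold ATG, and that of NDUFS1 does not. Whether any of these is the annotated start codon was not examined. NRF1 regulates respiratory chain genes, and its motif, GCGCA and GCGC with any 1 base between them, was in 17.6% of members and 6.98% of all genes. CCGGAAG of the ETS family, to which GABPA belongs, was in 14.7% and 12.2%, GGGCGG of the SP family in 64.7% and 48.3%, TGACGTCA of the CREB and ATF family in 5.88% and 2.25%, and CAAGGTCA of ESRRA in 2.94% and 1.6%. Of the same 6 members called lower and 5 called higher, the NRF1 motif was in 1 and 0, the ETS motif in 1 and 2, the SP motif in 3 and 4, the CREB and ATF motif in 0 and 1, and the ESRRA motif in 0 and 0. Matches of different motifs were free to overlap. A match describes letters and shows no binding. The motifs were chosen with earlier results of these data known, so the counts by call are no test of a link to the drug.

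The first comparison asked how alpelisib changed the subunit mRNAs of LIN28B cells. The core subunits NDUFS1, NDUFS7 and NDUFV1 and the accessory subunits NDUFA9, NDUFAB1 and NDUFB8 fell in both lines, and 5 accessory subunits rose in DLD-1. NDUFS1 fell furthest, to 0.413 of its untreated level under the LoVo label and 0.473 in DLD-1. Under the LoVo label 0 members were called higher and 12 lower at an adjusted p under 0.05 (limma, Benjamini-Hochberg over all genes tested), or 31.6% of the 38. Over all genes tested 39.7% were called, 15.1% higher and 24.6% lower. Without adjustment 18 members had p under 0.05 in either direction. In DLD-1 5 members were called higher and 7 lower, again 31.6%, against 31% of all genes, 9.05% higher and 21.9% lower. With the deposited scaling, the members' share of calls was thus below that of all genes under the LoVo label and close to it in DLD-1. The median log2 change of the members was -0.19 under the LoVo label, where that of all genes was -0.06, and -0.01 in DLD-1, where that of all genes was -0.09. Median-of-ratios scaling moved the median of all genes by 0.08 under the LoVo label and by 0.10 in DLD-1. It gave 5 higher and 9 lower members under the LoVo label, and 11 higher and 4 lower in DLD-1. Of all 18537 genes, 3588 were then higher and 3746 lower under the LoVo label, and 2620 higher and 2886 lower in DLD-1. Of 9 epithelium markers tested, 4 were higher and 2 lower in each line, and their part was not tested.

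The libraries of the lines are separate, although the LIN28B libraries labelled LoVo resembled those of DLD-1. NDUFA9, NDUFAB1, NDUFB8, NDUFS1, NDUFS7 and NDUFV1 were called lower in both lines. They are 6 of the 12 lower calls under the LoVo label and 6 of the 7 in DLD-1. Of all genes 24.6% were lower under the LoVo label and 21.9% in DLD-1. The share of all genes called lower in both was not counted, so this overlap cannot be read as particular to the members. Of the 6 members, 4 were called under each of 3 ways of scaling the libraries in both lines, namely NDUFA9, NDUFAB1, NDUFS1 and NDUFS7. NDUFA10, an accessory subunit of the ND2 module, lay close to the threshold in both lines. Its log2 change was -0.47 under the LoVo label (adjusted p = 0.0585) and -0.52 in DLD-1 (adjusted p = 0.0473). NDUFB3, NDUFB9, NDUFS3, NDUFS6 and NDUFS8 were called lower under the LoVo label and not in DLD-1. The difference of the alpelisib effect between the lines was tested directly, and 0 members were called higher and 1 lower in it, where 0.847% of all genes were called, 0.637% higher and 0.21% lower. Without adjustment 7 members had p under 0.05 in that test.

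NDUFS1 showed the deepest fall in both lines. It measured 32.9, 30.7 and 23.6 TPM in LoVo-labelled LIN28B with alpelisib, against 79.3, 62.8 and 69.2 TPM in LoVo-labelled LIN28B. The DLD-1 values were 27.6, 30.4 and 35.8 TPM with alpelisib and 69.00, 63.8 and 65.5 TPM without it. No library with the drug reached the lowest library without it, and replicate 3 was the lowest of the LoVo-labelled alpelisib libraries. Both falls were called (log2 change -1.26, SE 0.14, adjusted p = 5.65e-06 under the LoVo label and log2 change -1.06, SE 0.14, adjusted p = 6.89e-05 in DLD-1).

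NDUFS7, which carries the last iron-sulfur cluster before ubiquinone, had 109.5, 106 and 99.7 TPM with alpelisib and 152, 141 and 139.8 TPM without it under the LoVo label. In DLD-1 NDUFS7 measured 114, 99.2 and 112 TPM with alpelisib and 148, 156 and 137 TPM without. Its groups did not overlap in either line (log2 change -0.46, SE 0.079, adjusted p = 0.000289 and, in DLD-1, log2 change -0.44, SE 0.079, adjusted p = 0.000776).

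NDUFV1 binds NADH and the flavin. It had 131, 118 and 104 TPM with alpelisib and 179, 163 and 175 TPM without it under the LoVo label (log2 change -0.55, SE 0.085, adjusted p = 0.000111). The DLD-1 values were 139, 124 and 143 TPM with alpelisib and 177, 169 and 160.1 TPM without (log2 change -0.32, SE 0.085, adjusted p = 0.0101). All alpelisib libraries lay below all untreated ones, but without replicate 2 of the DLD-1 alpelisib group its adjusted p in DLD-1 was 0.0547. NDUFV2, the iron-sulfur partner of NDUFV1, was not called. It had 229, 226 and 283 TPM with alpelisib and 245, 310.5 and 258 TPM without it under the LoVo label (log2 change -0.14, SE 0.1, adjusted p = 0.299). In DLD-1 NDUFV2 had 234, 216 and 219 TPM with alpelisib and 221, 225 and 228 TPM without (log2 change -0.01, SE 0.1, adjusted p = 0.963). These groups overlapped in both lines, so the 2 subunits of the NADH-binding pair did not share a call.

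NDUFS8 and NDUFS3, both core subunits of the Q module, were called under the LoVo label only. NDUFS8 had 106, 107 and 96.8 TPM with alpelisib and 150.5, 128 and 115 TPM without it under the LoVo label (log2 change -0.34, SE 0.088, adjusted p = 0.00622). Its DLD-1 values were 112, 108 and 105 TPM with alpelisib and 132, 121 and 111 TPM without (log2 change -0.16, SE 0.088, adjusted p = 0.177). The DLD-1 groups overlapped by a narrow margin. NDUFS3 had 100.4, 101 and 107 TPM with alpelisib and 124, 122 and 112 TPM without it under the LoVo label (log2 change -0.21, SE 0.08, adjusted p = 0.0451), and this call was lost without any single library except replicate 3 of the untreated group, with adjusted p of 0.0525 to 0.143. In DLD-1 NDUFS3 had 118, 103 and 101 TPM with alpelisib and 112, 103 and 104 TPM without (log2 change 0.01, SE 0.08, adjusted p = 0.946), with overlapping groups. Of the 6 core subunits described, 5 were called lower under the LoVo label and 3 in DLD-1, with 0 higher in either line. Over all genes 24.6% were lower under the LoVo label and 21.9% in DLD-1. The calls of NDUFS3 under the LoVo label and of NDUFV1 in DLD-1 were not made under all 3 scalings.

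Among accessory subunits, NDUFA9 of the Q module and NDUFAB1 fell most. NDUFA9 had 57.5, 62.6 and 50.5 TPM with alpelisib and 106, 94.9 and 103 TPM without it under the LoVo label (log2 change -0.83, SE 0.13, adjusted p = 0.000155). In DLD-1 NDUFA9 measured 56.4, 48.8 and 60.8 TPM with alpelisib and 102, 92.8 and 95.3 TPM without (log2 change -0.80, SE 0.13, adjusted p = 0.000437). NDUFA9 was lower in every alpelisib library than in any untreated one of its line. NDUFAB1 had 117, 112 and 108 TPM with alpelisib and 214, 203 and 202 TPM without it under the LoVo label (log2 change -0.87, SE 0.11, adjusted p = 2.57e-05). Its values in DLD-1 were 110, 111 and 130.3 TPM with alpelisib and 185, 169 and 161 TPM without (log2 change -0.55, SE 0.11, adjusted p = 0.00197). The NDUFAB1 groups were separate in both lines. NDUFB8 of the ND5 module, 1 of the abundant members, averaged 288 ± 12.3 TPM with alpelisib and 378 ± 6.25 TPM without it under the LoVo label, and 318 ± 8.39 and 373 ± 25.2 TPM in the same DLD-1 groups (SD, n = 3 each). NDUFS6, a zinc-binding subunit of the N module, averaged 118 ± 20.5 TPM with alpelisib and 171 ± 13.4 TPM without it under the LoVo label (log2 change -0.54, SE 0.11, adjusted p = 0.00143), and was not called in DLD-1.

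**Figure D2:**
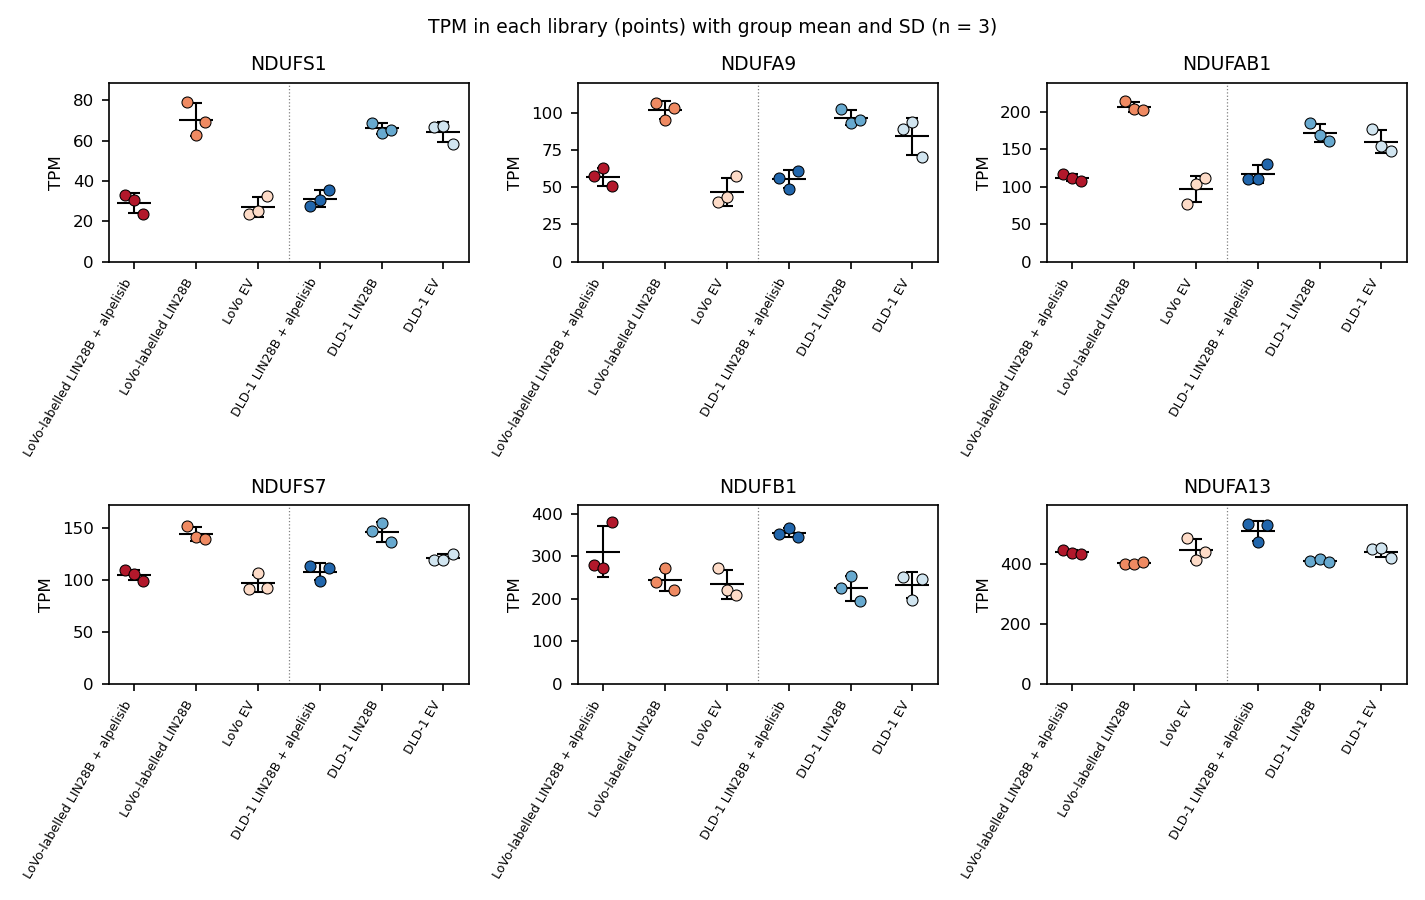
TPM of 6 members in each library (points), with the group mean and SD (n = 3) as lines, for LoVo-labelled LIN28B with alpelisib, LoVo-labelled LIN28B, LoVo EV and the same DLD-1 groups from left to right. NDUFS1, NDUFA9, NDUFAB1 and NDUFS7 are lower with alpelisib than with LIN28B alone in both lines, and NDUFB1 and NDUFA13 are higher with alpelisib in DLD-1.

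Of the 5 members that rose with alpelisib in DLD-1, 4 are membrane arm subunits, NDUFA1, NDUFA13, NDUFB1 and NDUFB2, and NDUFA2 belongs to the N module. NDUFB1, a single-span subunit of the ND4 module, measured 279.8, 273 and 379.6 TPM with alpelisib and 239, 272 and 222 TPM without it under the LoVo label. In DLD-1 NDUFB1 had 353, 367 and 346 TPM with alpelisib and 226, 253 and 195 TPM without. Replicate 3 stood above the other LoVo-labelled alpelisib libraries, and the gene was called in DLD-1 (log2 change 0.67, SE 0.14, adjusted p = 0.00219) and not under the LoVo label (log2 change 0.34, SE 0.14, adjusted p = 0.067). NDUFA2, a thioredoxin-like subunit of the N module, had 207, 189.5 and 214 TPM with alpelisib and 137, 163 and 145 TPM without it in DLD-1 (log2 change 0.46, SE 0.11, adjusted p = 0.0054). Under the LoVo label NDUFA2 had 168, 178 and 207 TPM with alpelisib and 161, 178 and 146 TPM without (log2 change 0.19, SE 0.11, adjusted p = 0.192), and the groups overlapped. NDUFB2 of the ND5 module had 201, 167 and 189 TPM with alpelisib and 143, 152 and 137 TPM without it in DLD-1 (log2 change 0.36, SE 0.11, adjusted p = 0.0171). That call was lost without replicate 1 of the alpelisib group (adjusted p = 0.0811) or replicate 3 of the untreated group (adjusted p = 0.0616). NDUFB2 under the LoVo label had 181, 193 and 192 TPM with alpelisib and 216, 192 and 203 TPM without (log2 change -0.11, SE 0.11, adjusted p = 0.44). NDUFA13 was also called higher in DLD-1 (log2 change 0.31, SE 0.066, adjusted p = 0.00248). Under the LoVo label it was not called (log2 change 0.12, SE 0.066, adjusted p = 0.151).

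NDUFA1, an X-linked membrane subunit needed for assembly, was the only member with opposite calls. It measured 209.7, 206 and 231 TPM with alpelisib and 225, 247 and 265 TPM without it under the LoVo label (log2 change -0.19, SE 0.071, adjusted p = 0.0442). In DLD-1 NDUFA1 measured 252, 243 and 251 TPM with alpelisib and 216, 203 and 196 TPM without (log2 change 0.28, SE 0.071, adjusted p = 0.00722). The groups overlapped under the LoVo label and were separate in DLD-1. The LoVo-labelled fall was lost without replicate 2 or 3 of the untreated group or replicate 1 or 2 of the alpelisib group (adjusted p of 0.0958 to 0.197). The difference of the effects, LoVo label minus DLD-1, was -0.47 (SE 0.1, adjusted p = 0.0351), the single call of that test. It was not called under median-of-ratios scaling, nor without any 1 of 10 of the 12 libraries, the exceptions being LoVo-labelled LIN28B replicate 1 and LoVo-labelled alpelisib replicate 3.

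The other 21 members were called in neither line with alpelisib. NDUFC2-KCTD14 apart, their log2 changes lay between -0.35 for NDUFS4 and 0.38 for NDUFA7 under the LoVo label and between -0.35 for NDUFS4 and 0.50 for NDUFA7 in DLD-1. NDUFS4, which joins the N and Q modules late in assembly and is often mutated in Leigh syndrome, had 72.1, 59.1 and 60.02 TPM with alpelisib and 76.6, 82.2 and 84.3 TPM without it under the LoVo label (adjusted p = 0.0887). In DLD-1 NDUFS4 had 51.2, 60.99 and 68.9 TPM with alpelisib and 88.8, 65.1 and 78.2 TPM without (adjusted p = 0.0993). NDUFA7, an accessory subunit of the N module, had 114, 81.5 and 74.5 TPM with alpelisib and 45.3, 90.6 and 58.7 TPM without it in DLD-1 (adjusted p = 0.132), a wide spread among replicates. NDUFC2 and NDUFB7, the members that varied least over the groups, had log2 changes of -0.12 and -0.05 under the LoVo label and 0.05 and 0.04 in DLD-1.

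**Figure D3:**
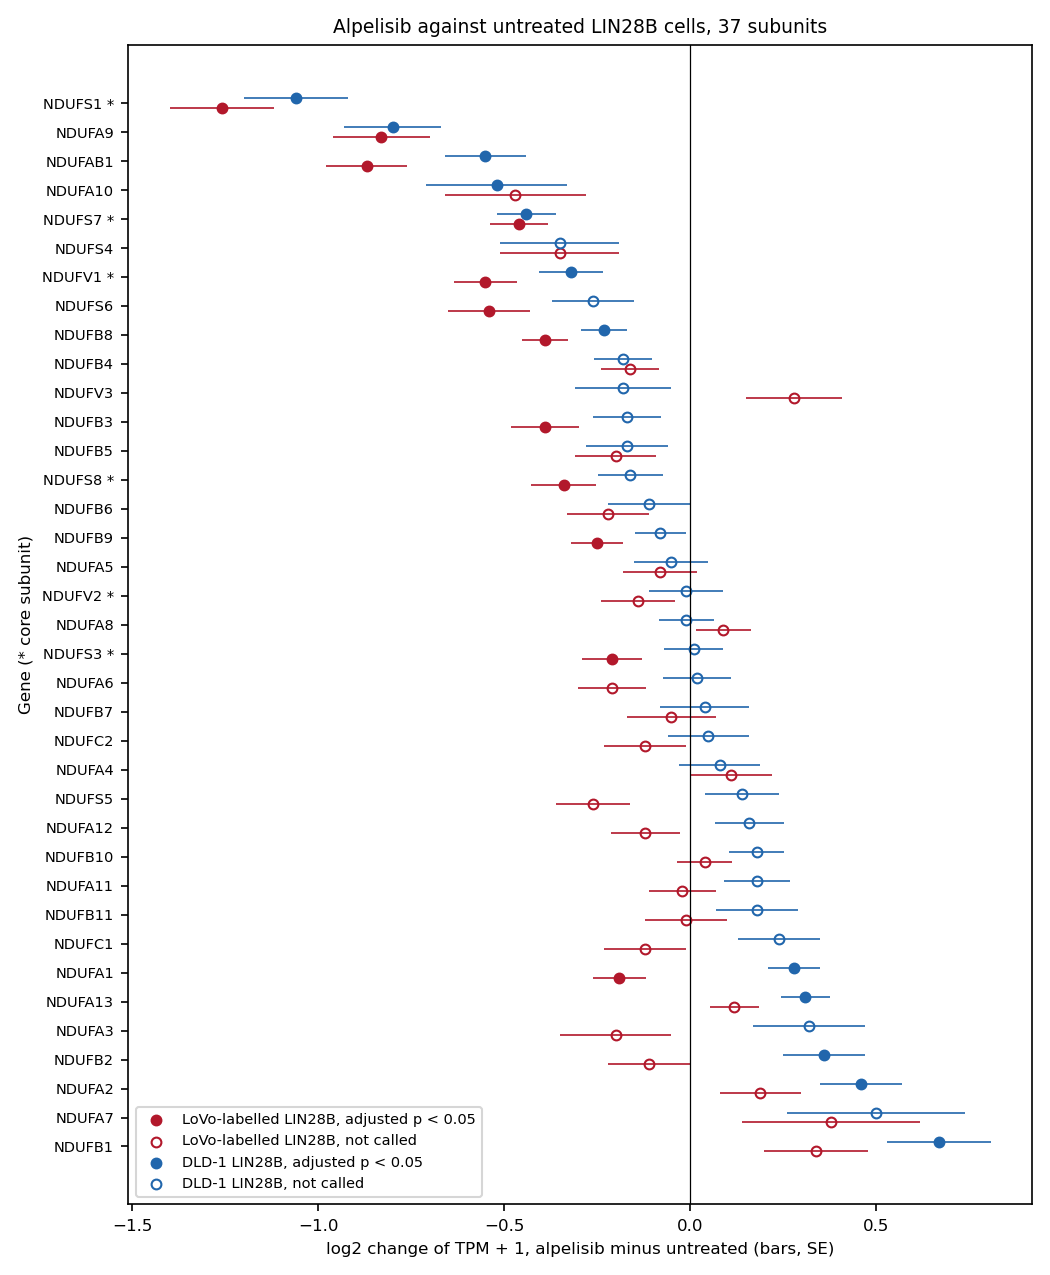
The log2 change of TPM + 1 with alpelisib, treated minus untreated LIN28B cells, is shown for the 37 single subunits, with SE as bars, in LoVo-labelled cells (red) and DLD-1 (blue). Filled points were called at an adjusted p under 0.05 and asterisks mark core subunits. NDUFS1, NDUFA9, NDUFAB1, NDUFS7, NDUFV1 and NDUFB8 are filled on the left in both lines, and the 5 filled points on the right are all from DLD-1.

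By module, 7 of the 12 lower calls under the LoVo label and 4 of the 7 in DLD-1 belonged to the Q and N modules of the peripheral arm, which hold 15 of the 38 members. Of all genes 24.6% were lower under the LoVo label and 21.9% in DLD-1. Of the 5 Q module members described, 4 were called lower under the LoVo label and 2 in DLD-1, with 0 higher. The N module of 10 members had 3 lower calls under the LoVo label, and 1 higher and 2 lower in DLD-1, near the share of all genes. Of the 4 ND1 module members 1 was lower under the LoVo label and 2 were higher in DLD-1. The ND2 module with 5 members and the ND4 module with 6 had 0 calls under the LoVo label, and in DLD-1 the ND2 module had 1 lower call and the ND4 module 1 higher call. The ND5 module had 3 of 5 lower under the LoVo label, and 1 higher and 1 lower in DLD-1. Membership of the modules is background knowledge, and no test compared the modules.

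The make-up of the complex I transcript pool was read from sums within each library, and restates the members' levels without a further test. The summed TPM of the members was 5439 ± 121 with alpelisib, 6110 ± 139.9 in LIN28B and 5551 ± 78.4 in EV under the LoVo label (SD, n = 3 each), and 5801 ± 278, 5692 ± 256 and 5657 ± 137 in the same DLD-1 groups. Scaled to the TPM outside the mitochondrial genome, the LoVo-labelled sums were 6041 ± 272 with alpelisib, 6693 ± 250.3 in LIN28B and 7000 ± 350.3 in EV (SD, n = 3 each), so the order of LIN28B and EV depended on that choice. The 6 core subunits described supplied 13.2%, 12.8% and 12.8% of the members' TPM in LoVo-labelled LIN28B with alpelisib, 15.0%, 15.0% and 14.6% in LoVo-labelled LIN28B and 11.25%, 11.9% and 10.9% in LoVo EV. In DLD-1 they supplied 12.4%, 12.4% and 12.1% with alpelisib, 14.9%, 14.2% and 14.9% in LIN28B and 13.2%, 13.7% and 13.95% in EV. The core share was lower in every alpelisib library than in any LIN28B library without the drug, in both lines. This share is a ratio within a library and so does not depend on how libraries are scaled.

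**Figure D4:**
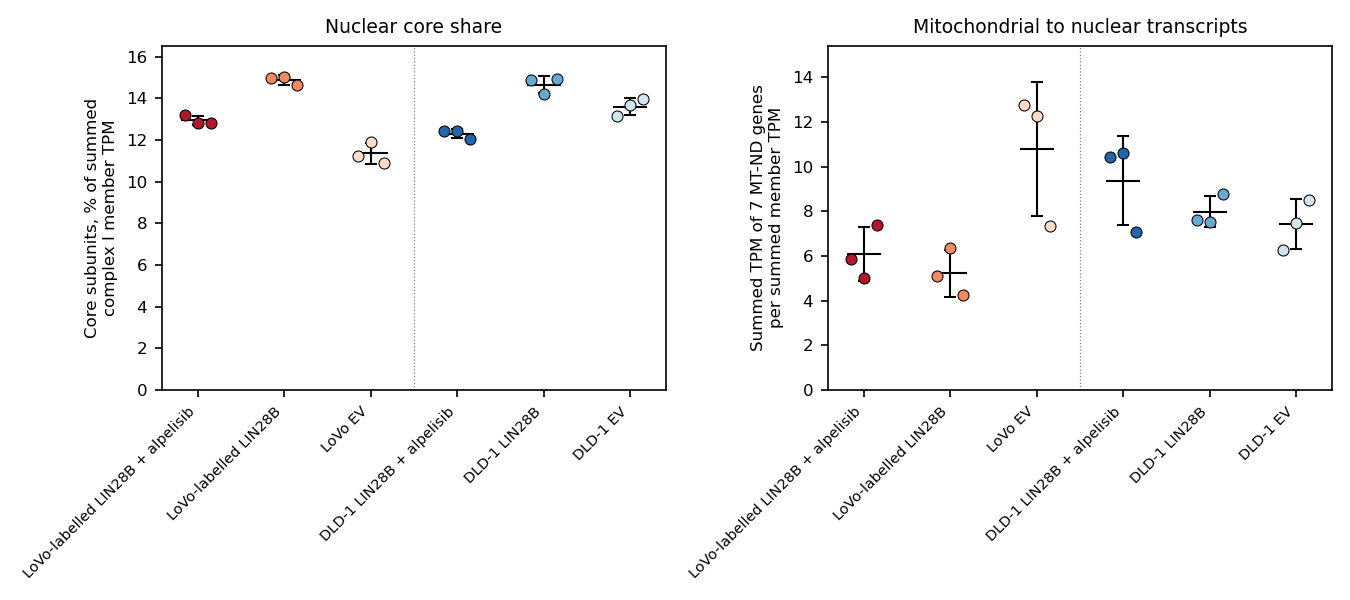
Left, the 6 nuclear core subunits described as a percentage of the summed TPM of the members, and right, the summed TPM of the 7 mitochondrially encoded ND genes per summed member TPM. Points are libraries and lines the group mean and SD (n = 3). Core shares with alpelisib lie between 12.1% and 13.2%, below the 14.2% to 15.0% of LIN28B cells without the drug, and LoVo EV replicates 1 and 2 have the highest mitochondrial ratios, 12.8 and 12.3.

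The second comparison asked how LIN28B cells differed from EV cells. In DLD-1 none of the 38 members was called in either direction by limma, where 2.53% of all genes were called, 1.21% higher and 1.32% lower, and 4 members had p under 0.05 without adjustment. Those 4 were NDUFS6, NDUFS7, NDUFV1 and NDUFB8, with log2 changes of 0.29, 0.27, 0.23 and 0.15, all higher in LIN28B. The number of members called was 0 under every alternative tried. The median log2 change of the members was 0.04, where that of all genes was 0.02. The core subunits described ranged from -0.02 for NDUFV2 to 0.27 for NDUFS7, which had 148, 156 and 137 TPM in DLD-1 LIN28B and 119, 119 and 126 TPM in DLD-1 EV (adjusted p = 0.0882). NDUFS1 measured 69.00, 63.8 and 65.5 TPM in DLD-1 LIN28B and 67.04, 67.2 and 58.6 TPM in DLD-1 EV (log2 change 0.04, SE 0.14, adjusted p = 0.952), and the libraries overlapped. NDUFB3, whose mouse mRNA was reported as a Lin28a target like that of NDUFB8, had a log2 change of 0.04 (adjusted p = 0.915). mRNA levels do not show translation.

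Under the LoVo label, 16 members were called higher and 4 lower in LIN28B than in EV, 52.6% of the 38. Over all genes 56.8% were called, 40.3% higher and 16.5% lower, so the members' share was near that of all genes with the deposited scaling. The median log2 change of the members was 0.15 and that of all genes 0.26. Median-of-ratios scaling moved the median of all genes by -0.28. With it 4882 of the 18537 genes were higher and 5083 lower, and of the members 8 were higher and 18 lower. Rescaling without mitochondrial genome transcripts moved the median by -0.16. With that scaling 6058 genes were higher and 4056 lower, and of the members 9 were higher and 8 lower. Without LoVo EV replicates 1 and 2 the counts were 11 higher and 3 lower. Called under all 3 scalings were NDUFA9, NDUFA10, NDUFAB1, NDUFB3, NDUFB5, NDUFS1, NDUFS3 and NDUFS7 as higher, and NDUFA1, NDUFA11, NDUFS5 and NDUFV3 as lower. Epithelium markers moved with the same contrast, with 8 of 9 tested higher and a median log2 change of 1.78, and their part in the result was not tested.

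NDUFS1, NDUFA9 and NDUFAB1 rose most in LIN28B cells of the LoVo label. NDUFS1 measured 79.3, 62.8 and 69.2 TPM in LoVo-labelled LIN28B and 23.6, 25.3 and 32.8 TPM in LoVo EV, a 2.59-fold difference (log2 change 1.35, SE 0.14, adjusted p = 5.28e-07). NDUFA9 had 106, 94.9 and 103 TPM in LIN28B and 39.9, 43.5 and 57.2 TPM in EV (log2 change 1.11, SE 0.13, adjusted p = 2.52e-06). For NDUFAB1 the LIN28B libraries had 214, 203 and 202 TPM and the EV libraries 77.3, 103 and 111 TPM (log2 change 1.10, SE 0.11, adjusted p = 5.59e-07). None of these groups overlapped, and EV replicate 3 was the highest EV library for all 3 genes. The LIN28B and alpelisib comparisons of this label share the untreated LIN28B libraries and are not independent.

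Further accessory subunits that were higher in LIN28B under all 3 scalings were NDUFA10, NDUFB3 and NDUFB5 of the membrane arm. NDUFA10, which has the fold of a nucleoside kinase, had 122, 98.1 and 127 TPM in LIN28B and 48.7, 55.4 and 82.5 TPM in EV under the LoVo label (log2 change 0.91, SE 0.19, adjusted p = 0.000606). NDUFB3 measured 247, 268 and 239.6 TPM in LIN28B and 137, 138 and 179 TPM in EV (log2 change 0.74, SE 0.091, adjusted p = 3.41e-06). NDUFB5 measured 149.5, 141 and 146 TPM in LIN28B and 74.9, 86.2 and 109.7 TPM in EV (log2 change 0.70, SE 0.11, adjusted p = 3.7e-05). All 3 were separate between the groups. NDUFB8 (0.24), NDUFB4 (0.30), NDUFA8 (0.32), NDUFB11 (0.35) and NDUFB6 (0.36) were called with the deposited scaling, and each lost its call under another scaling. Single subunits not called ranged from -0.30 for NDUFA7 to 0.21 for NDUFB2, with the abundant NDUFA13 at -0.15.

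The other 5 core subunits described were also called higher in LIN28B under the LoVo label. NDUFS3 had 124, 122 and 112 TPM in LIN28B and 72.5, 84.4 and 86.1 TPM in EV (log2 change 0.55, SE 0.08, adjusted p = 1.9e-05). NDUFS7 had 152, 141 and 139.8 TPM in LIN28B and 92.1, 107 and 92.7 TPM in EV (log2 change 0.57, SE 0.079, adjusted p = 1.19e-05). Both were separate between the groups. The N module subunit NDUFV1 had 179, 163 and 175 TPM in LIN28B and 116, 122 and 118 TPM in EV (log2 change 0.54, SE 0.085, adjusted p = 4.9e-05), and its partner NDUFV2 had 245, 310.5 and 258 TPM in LIN28B and 209, 210 and 182 TPM in EV (log2 change 0.43, SE 0.1, adjusted p = 0.00188). NDUFS8 had 150.5, 128 and 115 TPM in LIN28B and 105, 109 and 102 TPM in EV (log2 change 0.31, SE 0.088, adjusted p = 0.00684). The calls of NDUFV1, NDUFV2 and NDUFS8 depended on the scaling. Under median-of-ratios scaling their log2 changes were 0.17 (adjusted p = 0.0687), 0.07 (adjusted p = 0.686) and -0.06 (adjusted p = 0.608). Without LIN28B replicate 1 the adjusted p of NDUFS8 was 0.0512.

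NDUFS5, NDUFV3 and NDUFA1 were the largest falls in the same contrast. NDUFS5, a subunit on the intermembrane space side of the ND2 module, had 241, 233 and 211 TPM in LoVo-labelled LIN28B and 389.6, 377 and 343 TPM in LoVo EV (log2 change -0.69, SE 0.1, adjusted p = 2.41e-05). Elsewhere NDUFS5 averaged 191 ± 14.8 TPM in LoVo-labelled LIN28B with alpelisib, 224 ± 15.6 TPM in DLD-1 LIN28B with alpelisib, 204 ± 29.5 TPM in DLD-1 LIN28B and 192 ± 17.9 TPM in DLD-1 EV (SD, n = 3 each). All 3 LoVo EV libraries were above every library of those groups. NDUFV3 had 10.3, 10.8 and 11.6 TPM in LIN28B and 18.3, 13.8 and 18.9 TPM in EV under the LoVo label (log2 change -0.58, SE 0.13, adjusted p = 0.000778). NDUFA1 had 225, 247 and 265 TPM in LIN28B and 304, 305 and 289 TPM in EV under that label (log2 change -0.29, SE 0.071, adjusted p = 0.00235), and without EV replicates 1 and 2 its adjusted p was 0.0667. In DLD-1 the same 3 genes had log2 changes of 0.08, 0.05 and -0.08.

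The LIN28B effect differed between the labels for 13 members, 11 higher and 2 lower in the LoVo label minus DLD-1, where 42.7% of all genes were called, 30.4% higher and 12.4% lower. NDUFS1 had the largest difference, 1.30 (SE 0.2, adjusted p = 6.46e-05), and NDUFAB1 and NDUFA9 followed at 0.99 and 0.91. NDUFA9, NDUFAB1, NDUFB3, NDUFB5 and NDUFS1 were called higher under all 3 scalings, and the other 6 higher calls, NDUFV2, NDUFS3 and NDUFS7 among them, were not. NDUFS5 and NDUFV3 were the 2 lower calls, at -0.78 and -0.63. The direction of the split depended on the scaling. Median-of-ratios scaling moved the median of all genes by -0.26 and gave 5 higher and 9 lower, where 3654 and 3715 of all genes were. Without mitochondrial genome transcripts 6 members were higher and 6 lower, where 4360 and 3030 of all genes were. Without LoVo EV replicate 1 there were 4 lower calls. Epithelium markers were higher for 9 of 9 tested in this difference (median 1.84) and lower for 9 of 9 in LoVo EV against DLD-1 EV (median log2 change -1.33), and their part in these counts was not tested. In LoVo EV against DLD-1 EV 5 members were called higher and 14 lower, where 55.5% of all genes were called, 17.3% higher and 38.2% lower, with NDUFS1 at -1.22 and NDUFS5 at 0.95. Median-of-ratios scaling turned that split to 17 higher and 7 lower, with a shift of 0.23 in the median of all genes. Of all genes 5018 were then higher and 4837 lower. In LIN28B libraries labelled LoVo against those of DLD-1, 3 members were called higher and 1 lower, where 14% of all genes were called, 7.96% higher and 6.02% lower. These were NDUFB2 at 0.50, NDUFB10 at 0.29, NDUFA1 at 0.26 and NDUFV3 at -0.40. NDUFS1 had a log2 difference of 0.08 there. The call of NDUFV3 was lost without any 1 of the 6 libraries, and without LoVo-labelled replicate 2 there was 1 higher call. The EV comparison shares its libraries with the LIN28B contrasts and is given for its own values.

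LIN28B cells given alpelisib were also set against EV cells. Under the LoVo label 7 members were called higher and 6 lower, where 46.8% of all genes were called, 32.2% higher and 14.7% lower. Median-of-ratios scaling gave 1 higher and 17 lower, with a shift of -0.20 in the median of all genes. Of all genes 4095 were then higher and 4350 lower. The members' higher calls numbered 11 without EV replicate 3. Epithelium markers were higher for 8 of 9, with a median log2 change of 1.65, and their part was not tested. NDUFB5 (log2 change 0.50, SE 0.11, adjusted p = 0.00111) was the largest rise and the 1 higher call made under all 3 scalings, and NDUFS5 (log2 change -0.95, SE 0.1, adjusted p = 1.1e-06) and NDUFS6 (log2 change -0.57, SE 0.11, adjusted p = 0.000568) were the largest falls. NDUFS1 averaged 29.1 ± 4.88 TPM with LIN28B and alpelisib and 27.2 ± 4.89 TPM in LoVo EV, and was not called (log2 change 0.09, SE 0.14, adjusted p = 0.633). In DLD-1 5 members were called higher and 5 lower, where 29.9% of all genes were called, 9.71% higher and 20.2% lower. Median-of-ratios scaling gave 13 higher and 3 lower members, where 2590 of all genes were higher and 3088 lower. NDUFS1 (log2 change -1.02, SE 0.14, adjusted p = 8.89e-05), NDUFA9 (log2 change -0.59, SE 0.13, adjusted p = 0.00354) and NDUFAB1 (log2 change -0.45, SE 0.11, adjusted p = 0.00746) fell, also under all 3 scalings. NDUFS4 and NDUFB4 were the other 2 lower calls (-0.44 and -0.27). NDUFB1 rose (log2 change 0.62, SE 0.14, adjusted p = 0.0035), and NDUFA3, NDUFA2, NDUFA13 and NDUFA1 were the other 4 higher calls. The count of 5 higher calls was 3 without EV replicate 1, 2 without EV replicate 2, and 1 without alpelisib replicate 1 or replicate 3. The count of 5 lower calls was 3 without EV replicate 2 or alpelisib replicate 1.

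The ND genes of the mitochondrial genome, which encode the other core subunits, were not called lower with alpelisib in either line. MT-ND3 averaged 5884 ± 1331 TPM with LIN28B and alpelisib, 3853 ± 961 TPM with LIN28B and 9787 ± 2430 TPM in EV under the LoVo label. In DLD-1 MT-ND3 averaged 9886 ± 1873, 6701 ± 188 and 6707 ± 733 TPM in the same order (SD, n = 3 each). With alpelisib it was the 1 call of the 7 ND genes under the LoVo label (log2 change 0.62, SE 0.21, adjusted p = 0.0287). In DLD-1 0 of 7 were called, where 2 had p under 0.05 without adjustment. Over all genes 15.1% were higher with alpelisib under the LoVo label and 9.05% in DLD-1. In LIN28B against EV all 7 ND genes were called lower under the LoVo label, with log2 changes of -1.34 for MT-ND3 to -0.70 for MT-ND4. Over all genes 16.5% were lower there, and this contrast may hold a difference between lines. In DLD-1 0 of 7 were called for LIN28B, with 0 at p under 0.05 without adjustment, where 2.53% of all genes were called. The other 5 under the LoVo label were MT-ND1 at -1.09, MT-ND2 at -0.84, MT-ND6 at -0.84, MT-ND5 at -0.80 and MT-ND4L at -0.72. LoVo EV replicates 1 and 2 had the highest summed ND levels, 70094 and 67895 TPM, although MT-ND1 and MT-ND2 were higher in DLD-1 LIN28B with alpelisib replicates 1 and 2. The summed TPM of the ND genes per summed member TPM was 12.8, 12.3 and 7.34 in LoVo EV, and it lay between 4.25 and 10.6 in the other 15 libraries. MT-ND4 and MT-ND4L share a transcript, MT-ND6 lies on the other strand, and whether counting used strand was not given in the sources used here.

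MT-ND1 sits beside the ubiquinone channel. It averaged 4412 ± 912 TPM with LIN28B and alpelisib, 3226 ± 715 TPM with LIN28B and 6935 ± 1704 TPM in EV under the LoVo label (SD, n = 3 each). In DLD-1 MT-ND1 averaged 7912 ± 1670 TPM with LIN28B and alpelisib, 5367 ± 179.9 TPM with LIN28B and 5166 ± 621 TPM in EV. The replicates spread widely, and neither alpelisib change was called (adjusted p = 0.0902 under the LoVo label and 0.0575 in DLD-1). MT-ND4L had an alpelisib log2 change of -0.45 under the LoVo label and -0.18 in DLD-1, not called either.

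The other respiratory complexes gave a setting for these counts. Over all genes tested, 15.1% were higher and 24.6% lower with alpelisib under the LoVo label, and 9.05% and 21.9% in DLD-1. With alpelisib, 0 complex II subunits were higher and 3 of 4 lower under the LoVo label, and 0 higher and 2 lower in DLD-1. For 9 nuclear complex III subunits the counts were 0 higher and 5 lower under the LoVo label and 0 higher and 4 lower in DLD-1. Complex IV, with 10, had 1 higher and 3 lower under the LoVo label and 3 higher and 1 lower in DLD-1. ATP synthase, with 15, had 1 higher and 6 lower under the LoVo label and 3 higher and 2 lower in DLD-1. Its catalytic subunit ATP5F1B averaged 354 ± 77.8 TPM with alpelisib and 701 ± 41.9 TPM without it under the LoVo label (SD, n = 3 each; log2 change -1.01, SE 0.17, adjusted p = 0.000252). In LIN28B against EV under the LoVo label 4 of 4 complex II subunits and 7 of 9 of complex III were higher. So were 4 of 10 of complex IV and 8 of 15 of ATP synthase, with 2 lower in ATP synthase. Over all genes 40.3% were higher and 16.5% lower there, and complex IV was near that share. In DLD-1 0 genes of these lists were called, where 2.53% of all genes were. There 1 ATP synthase gene had p under 0.05 without adjustment. Counts under other scalings are not given for these lists.

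Assembly factors build complex I from its modules. Of 18 read, 1 was called higher and 6 lower with alpelisib under the LoVo label, and 1 higher and 3 lower in DLD-1. These are 38.9% and 22.2% of the list, where 39.7% and 31% of all genes were called. NDUFAF3, which acts on the Q module, was lower under the LoVo label (log2 change -0.48, SE 0.11, adjusted p = 0.00225), and ACAD9, needed for the ND2 module, was lower in both lines (-0.48 and, in DLD-1, -0.39). ECSIT was the rise under the LoVo label (0.47) and NDUFAF8 that in DLD-1 (0.47). In LIN28B against EV 10 factors were higher and 1 lower under the LoVo label, 61.1% of the list where 56.8% of all genes were called, and FOXRED1 was the 1 higher call in DLD-1 (log2 change 0.44, SE 0.11, adjusted p = 0.0449).

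Of 14 regulators of mitochondrial genes 12 were tested, and 2 were higher and 5 lower with alpelisib in each line. That is 58.3% of those tested, where 39.7% of all genes were called under the LoVo label and 31% in DLD-1. TFAM, which packages and helps to transcribe mitochondrial DNA, averaged 19.9 ± 3.98 TPM with alpelisib and 45.3 ± 5.96 TPM without it under the LoVo label (log2 change -1.16, SE 0.18, adjusted p = 0.000121). In DLD-1 TFAM averaged 28.5 ± 3.15 TPM with alpelisib and 44.6 ± 4.02 TPM without (log2 change -0.63, SE 0.18, adjusted p = 0.015; SD, n = 3 each). YY1, whose motif several member promoters hold, had 55.8 ± 1.25 TPM with alpelisib and 58.2 ± 6.78 TPM without it under the LoVo label. Its DLD-1 means were 64.00 ± 2.60 TPM with alpelisib and 65.2 ± 8.25 TPM without, and it was not called in either line (adjusted p = 0.764 and, in DLD-1, 0.938). PPARGC1A, which encodes PGC-1alpha, did not pass the filter on low values. In LIN28B against EV 5 regulators were higher and 3 lower under the LoVo label. These are 66.7% of those tested, where 56.8% of all genes were called. In DLD-1 0 regulators were called, where 2.53% of all genes were, and 2 had p under 0.05 without adjustment.

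NDUFA4L2, a hypoxia-induced paralogue of NDUFA4, was excluded by the rule. It averaged 56.3 ± 14.8 TPM with LIN28B and alpelisib, 85.7 ± 4.80 TPM with LIN28B and 2.47 ± 0.682 TPM in EV under the LoVo label, and 1.57 ± 0.364, 2.16 ± 0.678 and 3.68 ± 1.19 TPM in the same DLD-1 groups (SD, n = 3 each). LIN28B and EV under the LoVo label differed in it (log2 change 4.66, SE 0.22, adjusted p = 6.18e-11). NDUFA4 itself averaged 42.4 ± 2.57 TPM with LIN28B and alpelisib, 39.2 ± 2.65 TPM with LIN28B and 45.1 ± 8.09 TPM in EV under that label and was not called (-0.19 for LIN28B).

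Transcript length was read beside the alpelisib changes. The members' longest coding transcripts ran from 528 bases for NDUFB1 to 11819 bases for NDUFS1, with a median of 1169. Across the 38 members, Spearman's rho between length and the alpelisib log2 change was -0.18 under the LoVo label and -0.40 in DLD-1. Across 13296 of the 13380 protein-coding genes tested it was -0.21 and -0.28. Members called lower in DLD-1 had a median length of 2818 bases and those called higher 804 bases. Members called lower under the LoVo label had a median of 1172 bases and members not called 1124 bases. NDUFAB1 fell in both lines with a transcript of 885 bases. With GC content of the transcript, rho was 0.09 under the LoVo label and 0.22 in DLD-1 for members, and 0.33 and 0.33 for protein-coding genes. The correlations are across genes, which are not independent and share libraries, and lengths are those of the annotation and not of the transcripts present. The part of length in the members' changes was not tested.

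**Figure D5:**
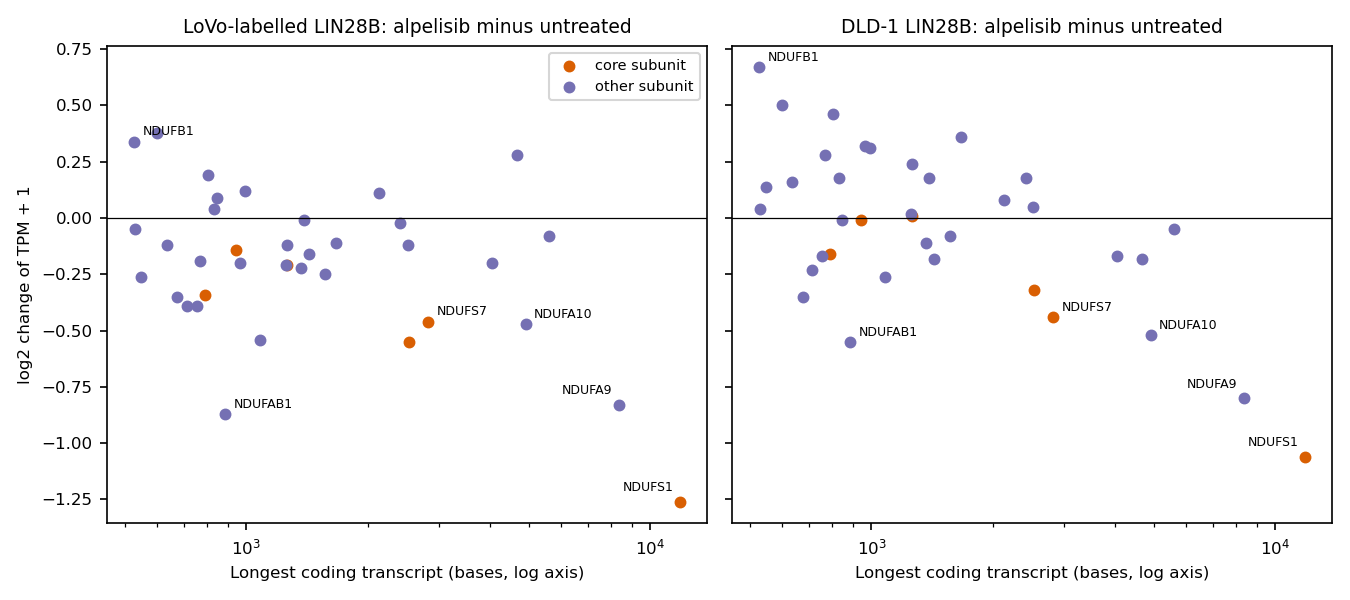
The alpelisib log2 change of TPM + 1 (vertical) of the 37 single subunits against the length of the longest annotated coding transcript (horizontal, log axis), for LoVo-labelled LIN28B cells on the left and DLD-1 on the right. Orange points are core subunits. NDUFS1 at 11819 bases and NDUFA9 lie at the lower right in both panels, NDUFB1 at 528 bases lies at the upper left, and NDUFAB1, with a transcript of 885 bases, is low in both.

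Pseudogenes and antisense genes were small beside the members. The table listed 57 pseudogenes of the members, 10 of which reached 1 TPM in a library, and together they held 4.66 to 16.6 TPM per library, where the members summed to 5362 to 6199 TPM. Reads shared between a member and a pseudogene could be assigned to either. The antisense gene NDUFV2-AS1 averaged 4.22 ± 0.688 TPM with LIN28B and alpelisib, 1.85 ± 0.581 TPM with LIN28B and 2.34 ± 0.820 TPM in EV under the LoVo label, where NDUFV2 averaged 246 ± 32.4, 271 ± 34.7 and 200.5 ± 15.6 TPM (SD, n = 3 each). NDUFB2-AS1 stayed below 1 TPM in all group means. NDUFC2 and NDUFC2-KCTD14 cannot be told apart on shared exons, and neither was called in any comparison.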

How the data were processed

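The authors deposited TPM, length-scaled shares of each library, as 1 value per gene and library for 18 libraries in 6 groups of 3. The submitters' processing notes name the build hg38 and STAR 2.7.10, Picard, HTSeq and DESeq2, with no role or order. The release of the annotation and the use of strand are not given in the sources used here. Since each library's TPM has a set total, abundant transcripts that change shift all others, and no counting interval can be given because depth is lost.

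Of 61806 Ensembl identifiers 61757 were matched to a symbol, and 39 met the rule, of which 38 are described and 1 is not reported here. Genes with at least 1 TPM in at least 3 libraries (18537) were tested as log2(TPM + 1), a scale that understates changes of low genes, in R 4.3.3 by limma 3.58.1 (lmFit with contrasts, then eBayes with trend). The model held 6 groups, 12 residual and 3.98 prior degrees of freedom, and p-values were adjusted by Benjamini-Hochberg over all genes tested, two-sided, with calls at an adjusted p under 0.05. The code was tested on simulated data. Levels in the text are TPM, and log2 changes are of TPM + 1. Groups came from the sample labels. The labels do not say whether replicate numbers pair the libraries, and the main model did not pair them.

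The members, gene lists, modules and motifs were chosen with earlier results of these data known. By rule, values in every library are given for core subunits, the highest and lowest member and the 3 largest called rises and falls per comparison, and for other lists up to 2 called genes per direction. NDUFA7, NDUFA10, NDUFB3, NDUFB5 and NDUFS4 were added after their values were seen. Alternatives were median-of-ratios scaling, rescaling without mitochondrial genome transcripts, a pseudocount of 0.1, no filter, fits on only the groups compared, a replicate block and leaving out each library. A fit without LoVo EV replicates 1 and 2 together was chosen after seeing the data. Promoters were searched in the RefSeq table, and transcript lengths come from the reference annotation.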

Additional observations from a re-analysis of the deposited data

Results flagged for a closer look

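The LIN28B effect differed between the LoVo label and DLD-1 for 11 members in the higher and 2 in the lower direction, by a limma test of the difference itself. That is 34.2% of the members, where 42.7% of all genes were called, 30.4% higher and 12.4% lower. With median-of-ratios scaling 5 members were higher and 9 lower, where 3654 of all genes were higher and 3715 lower. The log2 difference, LoVo label minus DLD-1, was 1.30 for NDUFS1, 0.99 for NDUFAB1, 0.91 for NDUFA9, 0.45 for NDUFV2, 0.43 for NDUFS3 and 0.30 for NDUFS7. The calls of NDUFV2, NDUFS3 and NDUFS7 were not made under all 3 scalings, and those of NDUFS1, NDUFAB1 and NDUFA9 were. It was -0.78 for NDUFS5 and -0.63 for NDUFV3. The LoVo-labelled LIN28B libraries resembled DLD-1 libraries more than LoVo EV libraries, and this difference and an effect of LIN28B cannot be told apart under that label.

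The alpelisib effect differed for 0 members in the higher and 1 in the lower direction, by the same kind of test, where 7 members had p under 0.05 without adjustment and 0.847% of all genes were called, 0.637% higher and 0.21% lower. The 1 was NDUFA1, with a log2 difference of -0.47, a call not made under median-of-ratios scaling nor without any 1 of 10 of the 12 libraries. Its groups overlapped under the LoVo label and were separate in DLD-1.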

How the results depend on the processing

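Scaling moved more counts of called members than any other choice, and of the single members followed, 328 values kept direction and call, 30 lost the call and 1 changed sign. That 1 was NDUFS8 in LIN28B against EV under the LoVo label, at 0.31 as deposited and -0.06 with median-of-ratios scaling. Median-of-ratios scaling gave 8 higher and 18 lower members in that comparison (16 and 4 as deposited), 11 higher and 4 lower with alpelisib in DLD-1, and 5 higher with alpelisib under the LoVo label. For LIN28B with alpelisib against EV it gave 13 higher and 3 lower in DLD-1, and 1 higher and 17 lower under the LoVo label. It gave 17 higher and 7 lower in LoVo EV against DLD-1 EV, and 5 higher and 9 lower for the difference of the LIN28B effect. LoVo-labelled against DLD-1 LIN28B had 1 higher, where 1443 of all genes were. The difference of the alpelisib effect had 0 lower, where 105 of all genes were. The other counts of all genes under this scaling stand with the comparisons above. Rescaling without mitochondrial genome transcripts gave 9 higher and 8 lower members for LIN28B against EV under the LoVo label. For LIN28B with alpelisib against EV under that label it gave 2 and 14, where 4503 and 3763 of all genes were called. For LoVo EV against DLD-1 EV it gave 12 and 7, where 4069 and 5813 of all genes were. For the difference of the LIN28B effect it gave 6 and 6. LoVo-labelled against DLD-1 LIN28B then had 1 higher, where 1377 of all genes were. Under the LoVo label, LIN28B with alpelisib against EV had 3 higher with only the groups compared and 3 without LoVo EV replicates 1 and 2, which left 7 lower in LoVo EV against DLD-1 EV. Only the groups compared gave 0 lower for the difference of the alpelisib effect. With no filter 2 were higher in LIN28B with alpelisib against EV in DLD-1 and 0 lower in LoVo-labelled against DLD-1 LIN28B.

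Leaving out 1 library at a time gave 1 to 5 higher and 3 to 5 lower in LIN28B with alpelisib against EV in DLD-1, and 5 to 11 higher under the LoVo label, 0 to 1 higher with alpelisib under the LoVo label, 1 to 3 higher and 0 lower in LoVo-labelled against DLD-1 LIN28B, 2 to 4 lower for the difference of the LIN28B effect, and 0 to 1 lower for that of the alpelisib effect. Same-numbered libraries correlated by -0.302 to 0.119 in their deviations from the group means. Differently numbered libraries were not set beside them, so these values cannot show whether the numbers pair the libraries. With a replicate block 3 members were higher in LIN28B with alpelisib against EV in DLD-1 and 0 lower for the difference of the alpelisib effect, and NDUFA1 and NDUFS3 under the LoVo label with alpelisib had adjusted p of 0.0614 and 0.0673. The cause of these changes was not tested. Depth is unknown, and with 3 libraries a group the smallest changes could not be detected.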
